A study of Homo sapiens with 6 samples.

Results

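RB-KD OIS cells were compared with growing cells, that is, fibroblasts that had received the Ras signal but had lost RB against the same cells in proliferation. The members are the 2 arrays labelled siRB1 OIS and the 2 arrays labelled growing, 4 of the 6 arrays of the series, and they were taken by these labels alone. All cells are IMR90, a normal human lung fibroblast line, and all carry ER:Ras, an oncogenic H-Ras fused to a hormone-binding domain that 4-hydroxytamoxifen (4-OHT) switches on. Growing cells received neither 4-OHT nor siRNA. RB-KD OIS cells (oncogene-induced senescence with RB knockdown) received 100 nM 4-OHT for 6 days and siRNA against RB1 for the last 4 days. Ctrl-KD OIS cells received the same 4-OHT and a control siRNA, and their 2 arrays stay out of this comparison. They are given as values beside the others and, for some genes, in a second fit of RB-KD against Ctrl-KD OIS cells. Ras, 4-OHT, transfection and RB loss therefore differ together between RB-KD OIS and growing cells and cannot be told apart in this comparison. Each state has 2 biological replicates, which the methods describe as independent experiments.

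RB, the retinoblastoma protein, binds E2F factors and keeps genes of DNA replication silent until cyclin-dependent kinases phosphorylate it. Genes of mitosis are switched on later in the cycle by MYBL2 and FOXM1, and p107 and p130, the relatives of RB, help to hold them down in resting cells. Ras-induced senescence pairs a stable arrest with strong secretion of cytokines, chemokines and proteases, known as the senescence-associated secretory phenotype.

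The knockdown was plain in the RB1 signal, which read 2627 and 2528 in growing cells, 2578 and 1914 in Ctrl-KD OIS cells and 222 and 228 in RB-KD OIS cells, so the knockdown arrays lay far below the other 4. The log2 fold change of RB-KD OIS over growing cells was -3.52 (standard error 0.11, adjusted p = 1.26e-06, limma). A dimmer RB1 probe set read between 4.1 and 53.1 on these 4 arrays, and with the mean of both probe sets the change was -2.16 and missed the threshold (adjusted p = 0.0551). HRAS, whose probe set may also read the transgene, gave 24229 and 22654 in growing cells, 22631 and 27036 in Ctrl-KD OIS cells and 19981 and 18685 in RB-KD OIS cells. HRAS message was thus abundant on all 6 arrays and slightly lower in RB-KD OIS than in growing cells (-0.28, adjusted p = 0.0123).

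The arrays were of even quality by the measures the table allows. Median signals lay between 46 and 51.8, and Pearson's r across genes was 0.978 between the growing arrays, 0.975 between the RB-KD OIS arrays and 0.903 to 0.907 between the states. All 11 fibroblast markers lay above the array median on all 4 arrays, with a summed signal of 214347 to 215730 in growing and 147558 to 177432 in RB-KD OIS cells. Of 3 leukocyte markers with a probe set of their own, 0 did so, with sums of 136.5 to 169.5 and 80.8 to 92.4. The epithelial markers CDH1, KRT5 and KRT14 stayed under the median throughout, and 3 of 7 of that list (EPCAM, KRT8 and KRT18) lay above it, with sums of 3826 to 4128 in growing and 3522 to 3555 in RB-KD OIS cells. For endothelial cells CDH5 and KDR stayed under the median, and 2 of 5 markers (PECAM1 and TEK) lay above it, with sums of 1318 to 1445 and 1429 to 1597. In bulk RNA, fewer cells with a transcript and less of it per cell cannot be told apart.

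Of 12823 genes tested, 2621 were higher (20.4% of those tested) and 2741 lower (21.4%) in RB-KD OIS than in growing cells, 41.8% in either direction, at an adjusted p under 0.05 from limma. At least 2-fold changes were called for 790 higher and 990 lower genes, and at least 8-fold for 140 and 93. The share of higher among the called genes was 48.9%, and centring each array on its median raised it to 59.6% and moved the median log2 fold change of all genes from -0.026 to 0.0845. Small changes therefore depend on the scaling. Every list below is read against these shares and this median.

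The genes of cyclin E, which activates CDK2 to start S phase, had the largest rises of the G1/S list. CCNE2, which encodes cyclin E2, read 806 and 777 in growing cells, 61.8 and 108 in Ctrl-KD OIS cells and 5312 and 6106 in RB-KD OIS cells. CCNE1 (cyclin E1) read 465 and 411, 893 and 901 and 2716 and 3524 in the same order. The groups did not overlap for either gene, and the log2 fold changes over growing cells were 2.85 (standard error 0.10, adjusted p = 1.66e-06) and 2.82 (standard error 0.14, adjusted p = 9.68e-06). CDC25A, the phosphatase that frees CDK2 of its inhibitory phosphates, gave 246 and 198 in growing and 402 and 603 in RB-KD OIS cells, which lay above it (log2 fold change 1.16, adjusted p = 0.00569). Its call ended by the average of its probe sets (adjusted p = 0.0797) and with an untrended variance prior (adjusted p = 0.0509). CDK4, CDK2 and SKP2 were higher by 0.58, 0.42 and 0.37 on the log2 scale. Of the 14 G1/S genes tested, 6 were higher and 5 lower, with a median log2 fold change of 0.094. The lower members included the CDK-binding subunits CKS1B (-2.04, adjusted p = 1.45e-05) and CKS2 (-1.06) and the kinases CDK6 (-0.59) and CDK7 (-0.49). The abundant CCND1 (cyclin D1) read 18060.5 and 18112 against 17203 and 15363 and was not called.

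Genes that load and activate the replicative helicase also stood above the growing level. MCM3, a subunit of the MCM helicase ring, read 1658 and 1359.9 in growing cells, 342 and 424 in Ctrl-KD OIS cells and 3302 and 3709 in RB-KD OIS cells (log2 fold change over growing 1.22, standard error 0.12, adjusted p = 0.00017). CDC6, which loads the ring onto DNA, read 726 and 617, 116 and 154 and 1217 and 1371 (0.95, standard error 0.13, adjusted p = 0.000819). In both genes each RB-KD OIS array lay above each growing array, and the Ctrl-KD OIS arrays lay below all of them. MCM2, CDC7 (the kinase that fires origins), MCM6, CDT1 (a loader) and MCM4 were higher by 0.81, 0.72, 0.56, 0.55 and 0.48. MCM5 was higher by 0.44 (adjusted p = 0.0152), a call that ended in 4 of 14 alternatives, without growing replicate 2 (adjusted p = 0.113) among them. MCM7 read 1557 and 1454 against 1457 and 1692 and was not called. Of 19 licensing genes tested, 9 were higher and 2 lower, with a median log2 fold change of 0.31, or 5 higher when all probe sets of a gene were averaged. In a fit that held all 6 arrays, with 13398 genes tested for RB-KD against Ctrl-KD OIS, 13 of these genes were called higher and 0 lower, where 12.6% and 11.6% of all genes tested in that comparison were called. MCM10, which joins the helicase at firing, was an exception to the rise over growing cells. It read 483 and 455 in growing cells, 49.1 and 95.3 in Ctrl-KD OIS cells and 214 and 289 in RB-KD OIS cells, and its log2 fold change over growing cells was -0.92 (standard error 0.19, adjusted p = 0.0066, and 0.0501 with all 6 arrays in the fit). DBF4, the partner of CDC7, was likewise lower (-0.50, adjusted p = 0.0154), and without growing replicate 1 the number of lower licensing genes was 1.

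**Figure D1:**
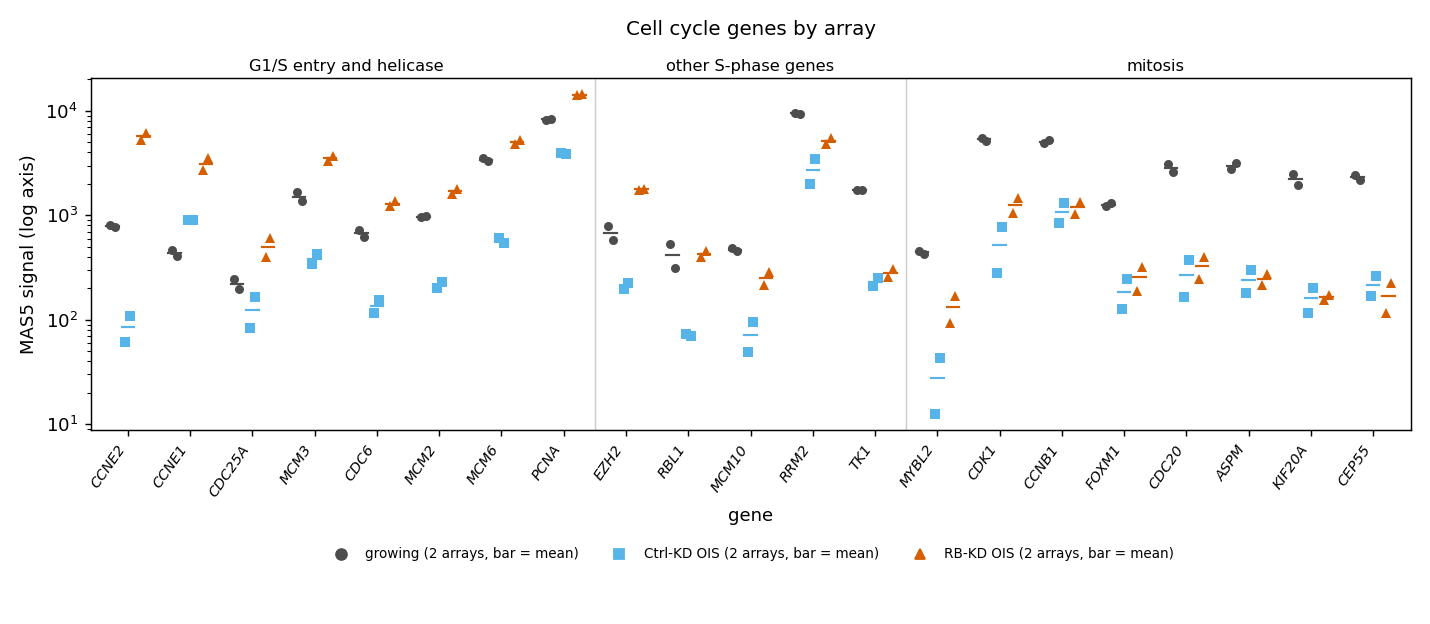
MAS5 signal of single cell cycle genes (log axis) on each of the 2 arrays of each of the 3 states (growing, Ctrl-KD OIS, RB-KD OIS), with bars at the means. For CCNE2, MCM3, CDC6 and MCM2 both RB-KD OIS arrays lie above both growing arrays, while for CDC20, ASPM, KIF20A and CEP55 they lie near the Ctrl-KD OIS arrays, far below growing cells.

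Letters that E2F is known to bind were looked for in the proximal promoters of the cell cycle lists. The 150 bases before the start site are shown for 4 members that rose, with E2F letters in capitals (TTTCGCGC, TTTGGCGC, TTTCCCGC or TTTGCCGC, searched on both strands, so that neighbouring matches can share letters). They are CDC7 and MCM6 of the licensing list, CDC25A, and TIPIN of the replication fork, given 5′ to 3′ on the gene's strand from RefSeq on GRCh38.p14, at chr1:91500962-91501111 (plus strand), chr2:135876444-135876593 (minus), chr3:48188418-48188567 (minus) and chr15:66356686-66356835 (minus).
CDC7: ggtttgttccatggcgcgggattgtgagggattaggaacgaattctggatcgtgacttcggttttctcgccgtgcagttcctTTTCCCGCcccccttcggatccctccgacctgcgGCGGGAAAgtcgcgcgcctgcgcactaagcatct
MCM6: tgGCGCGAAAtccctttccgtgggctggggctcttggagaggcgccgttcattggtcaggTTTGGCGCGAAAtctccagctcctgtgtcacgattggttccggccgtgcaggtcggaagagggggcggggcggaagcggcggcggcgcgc
CDC25A: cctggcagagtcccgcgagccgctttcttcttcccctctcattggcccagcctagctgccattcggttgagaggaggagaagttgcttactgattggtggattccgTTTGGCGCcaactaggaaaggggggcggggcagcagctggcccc
TIPIN: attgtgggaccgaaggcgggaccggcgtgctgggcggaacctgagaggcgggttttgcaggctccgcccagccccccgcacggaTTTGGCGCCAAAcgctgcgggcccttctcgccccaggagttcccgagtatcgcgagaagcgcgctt
Such letters occurred within 250 bases before to 50 after a start site for 10 of 17 licensing genes with a promoter in the table (58.8%) and 14 of 31 replication fork genes (45.2%), but for 1 of 10 G1/S genes (10%), namely CDC25A, beside 6.46% of all 10414 genes tested that have one and 3.99% of all promoters in the table. A match is a description of these windows and shows no binding.

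Several genes of the replication fork exceeded the growing level as well. TIPIN, which protects stalled forks together with TIMELESS, read 900.2 and 781 in growing, 653 and 639 in Ctrl-KD OIS and 2494 and 2478 in RB-KD OIS cells (log2 fold change over growing 1.57, standard error 0.10, adjusted p = 2.84e-05). PCNA, the sliding clamp of the polymerases, read 8186 and 8413, 3969 and 3894 and 14129.7 and 14395 (0.78, standard error 0.061, adjusted p = 6.59e-05). The groups were apart in both genes. RFC2 of the clamp loader (1.41), DONSON (1.12), the flap nuclease FEN1 (0.96) and RPA2 of the single-strand binding complex (0.94) were higher too. Of 40 fork genes tested, 14 were higher and 5 lower, with a median of 0.14. The lower members were the helicase cofactors GINS4 (-1.70, adjusted p = 0.00358) and CDC45 (-0.79), the clamp loader subunits RFC3 (-1.01) and RFC1 (-0.34), and TIMELESS itself (-0.46, adjusted p = 0.0398). The calls of GINS4 and RFC3 ended by the average of their probe sets (adjusted p = 0.0978 and 0.253). The number of lower fork genes was between 1 and 3 in 8 of the alternatives, and 3 without growing replicate 2 or RB-KD OIS replicate 1.

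Genes of deoxynucleotide metabolism split in direction, with 9 of 14 genes higher, 5 lower and a median of 0.41, and 3 were lower without either growing replicate. TYMS, thymidylate synthase, read 10723 and 10966 in growing, 1882 and 2053 in Ctrl-KD OIS and 14502 and 15199 in RB-KD OIS cells (0.45, standard error 0.062, adjusted p = 0.000951). TK1, the thymidine kinase of the salvage route, read 1739 and 1731, 212 and 253 and 254 and 309 (-2.63, standard error 0.13, adjusted p = 9.45e-06). TYMS thus lay above the growing level and TK1 stayed near the Ctrl-KD OIS level. Of the ribonucleotide reductase genes, the large subunit RRM1 was higher (0.38), RRM2 of the S-phase enzyme lower (-0.90) and RRM2B, its p53-dependent counterpart, higher (0.65). CMPK2, a mitochondrial kinase that also responds to interferon, had the largest change of the list, from 70.6 and 56.9 to 774 and 577 (3.40, standard error 0.24, adjusted p = 4.17e-05).

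Chromatin genes that accompany replication gave 10 higher and 5 lower of 26 tested (median 0.08). EZH2, the methyltransferase of Polycomb complex PRC2, read 782 and 585 in growing, 196 and 226 in Ctrl-KD OIS and 1749 and 1791 in RB-KD OIS cells (1.39, standard error 0.15, adjusted p = 0.000265). Its partners EED (1.06, adjusted p = 7.96e-05) and SUZ12 (0.65) were higher as well, so all 3 core PRC2 genes stood above the growing level. The histone chaperones NASP (0.78) and ASF1B (0.74) were also higher. LMNB1, the lamin B1 gene whose loss marks senescence, read 2528 and 2365, 307 and 322 and 2197 and 3202, and RB-KD OIS and growing arrays overlapped. HMGB2, HMGB3 and LMNA remained lower than in growing cells by the brightest probe set (-1.97, -1.37 and -1.16), and for HMGB2 an average over its probe sets gave 0.49 and no call (adjusted p = 0.473).

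Repair genes gave 7 higher and 11 lower of 31 tested (median -0.19), and 5 and 6 were lower without growing replicate 1 and 2. FANCL, the ubiquitin ligase of the Fanconi pathway, read 1173 and 1151 in growing and 2796 and 2989 in RB-KD OIS cells (1.31, standard error 0.087, adjusted p = 2.87e-05). MSH6 of mismatch repair (1.14) and PALB2, which brings BRCA2 to breaks (0.81), were higher. The nuclease EXO1 (-1.38) and the helicase BLM (-1.27) were lower. FBXO5 (-1.62), counted among the 11 lower genes of this list, restrains the anaphase-promoting complex and is not a repair enzyme.

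Mitotic genes stayed far below the growing level. CDC20, the activator of the anaphase-promoting complex, read 3100.0 and 2611 in growing, 166 and 373 in Ctrl-KD OIS and 246 and 402 in RB-KD OIS cells (-3.18, standard error 0.22, adjusted p = 3.74e-05). CDK1, the mitotic kinase, read 5508 and 5177, 278 and 774 and 1065 and 1456 (-2.10, standard error 0.14, adjusted p = 3.34e-05). Growing arrays lay far above both OIS states in each gene, and the RB-KD OIS arrays overlapped the Ctrl-KD OIS arrays for CDC20 but lay above them for CDK1. Of 39 mitosis regulators tested, 29 were lower and 1 higher, with a median of -1.92, and the higher one was WEE1 (0.53, adjusted p = 0.00234), the kinase that holds CDK1 inactive. Without RB-KD OIS replicate 1 the number of higher regulators was 3. The activators of mitotic transcription were among the lower genes. MYBL2 read 459.8 and 428 in growing, 12.6 and 42.9 in Ctrl-KD OIS and 93.8 and 169 after RB knockdown (-1.81 over growing cells, adjusted p = 0.00199). FOXM1 read 1223 and 1308, 126 and 245 and 191 and 319.9 (-2.36, adjusted p = 0.000191). CCNB1, CCNB2 and CCNA2, the cyclins of G2 and mitosis, had log2 fold changes of -2.11, -2.82 and -2.00.

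The machinery of division gave the deepest median of the cell cycle lists. Of 48 spindle, kinetochore and cytokinesis genes tested, 45 were lower and 1 higher, with a median log2 fold change of -2.38. CEP55, a scaffold of abscission, read 2452 and 2176 in growing, 168 and 265 in Ctrl-KD OIS and 115 and 226 in RB-KD OIS cells (-3.84, standard error 0.28, adjusted p = 5e-05). The kinesin KIF20A (-3.75), the spindle pole gene ASPM (-3.61), HMMR (-3.24) and the cytokinesis gene ANLN (-3.17) fell to a like degree. SKA1, of the outer kinetochore, lay under the array median on both RB-KD OIS arrays and was at least 5.9-fold lower (adjusted p = 0.00037, limma). ZWINT, a kinetochore gene, was the higher member, from 5827 and 5834 to 6882 and 7785 (0.33, adjusted p = 0.013), and the number of higher members was 0 without either growing replicate and 2 without RB-KD OIS replicate 1. Against the Ctrl-KD OIS arrays 8 of 48 genes were called higher and 0 lower, against 32 and 1 of 40 fork genes. In that comparison 12.6% of all genes tested were called higher and 11.6% lower.

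**Figure D2:**
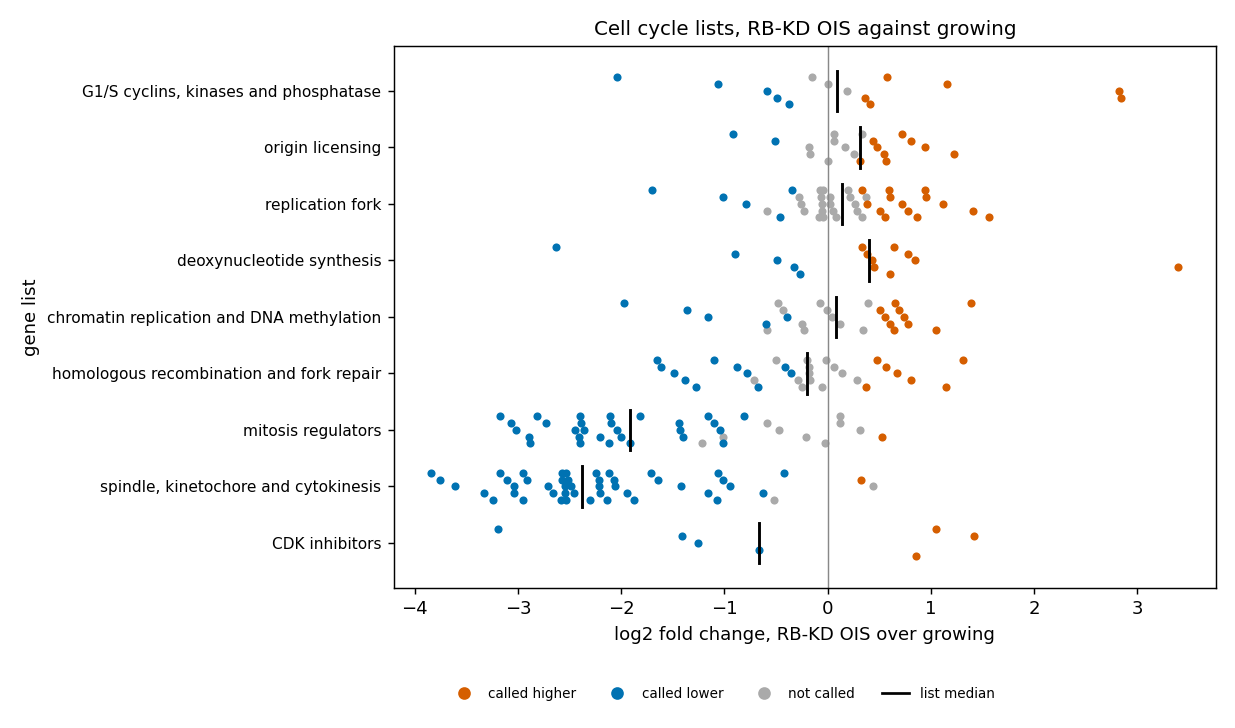
Log2 fold change of RB-KD OIS over growing cells for each tested member of 9 cell cycle lists, 1 point per gene (2 arrays against 2), coloured by its call, with a black bar at the list median. The medians of the licensing and fork lists lie at 0.31 and 0.14, and those of mitosis regulators and spindle genes at -1.92 and -2.38.

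Promoters of the mitotic lists hold another set of letters, the cell cycle homology region (CHR) read by the complex of MYBL2, FOXM1 and the MuvB core. The 150 bases before the start site are shown for CDC20 (chr1:43358831-43358980, plus strand) and CEP55 (chr10:93496462-93496611, plus strand) on GRCh38.p14, which had the largest falls of the mitosis and spindle lists, with CHR letters (TTTGAA or TTCGAA on either strand) in capitals.
CDC20: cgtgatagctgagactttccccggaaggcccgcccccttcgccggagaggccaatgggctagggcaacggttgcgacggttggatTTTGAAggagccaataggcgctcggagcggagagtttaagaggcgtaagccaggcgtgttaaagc
CEP55: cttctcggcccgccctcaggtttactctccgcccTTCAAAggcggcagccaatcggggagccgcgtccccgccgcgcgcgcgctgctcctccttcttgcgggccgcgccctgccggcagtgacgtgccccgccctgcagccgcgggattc
Within the 300-base windows, CHR letters occurred for 21 of 31 mitosis regulators (67.7%) and 33 of 44 spindle genes (75%), against 2 of 17 licensing genes (11.8%), 1 of 31 fork genes (3.23%) and 16.1% of all genes tested. E2F letters occurred for 1 mitosis regulator (3.23%) and 4 spindle genes (9.09%). The CHR letters are short and occurred in 19.5% of all promoters in the table.

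E2F and pocket protein genes moved in both directions, with 4 higher and 3 lower of 13 tested (median 0.075). E2F7, a repressor that is itself an E2F target, read 3059 and 2859 in growing, 14579.9 and 13694 in Ctrl-KD OIS and 11128 and 12458 in RB-KD OIS cells (1.99, standard error 0.082, adjusted p = 3.79e-06). TFDP1, the dimer partner of E2F factors, read 5677 and 5607, 3973 and 4584 and 8467 and 8621 (0.60, standard error 0.064, adjusted p = 0.000294). E2F5, a factor bound by p130, was lower (-1.05, adjusted p = 0.00387, and 0.103 by the average of its probe sets), and E2F8 was lower (-1.96, adjusted p = 0.0339) in a call that ended in 6 of 14 alternatives, among them without growing replicate 1 (adjusted p = 0.11). RBL1, which encodes p107, read 531 and 312, 73.1 and 69.7 and 400.3 and 459.7, so RB-KD OIS cells lay within the growing range and above the Ctrl-KD OIS arrays (log2 fold change between the OIS states 2.59, adjusted p = 0.000233).

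Inhibitors of the cyclin-dependent kinases split in direction, and CDKN1A, CDKN2A and CDKN2B were higher than in growing cells. CDKN1A, which encodes p21, read 10394 and 11129.6 in growing, 17634 and 18714 in Ctrl-KD OIS and 20301 and 18678 in RB-KD OIS cells (0.86, standard error 0.071, adjusted p = 8.38e-05). CDKN2A, the locus of p16 and ARF, read 588 and 537, 1096 and 1150.5 and 1276 and 1063 (1.05, standard error 0.13, adjusted p = 0.000598). CDKN2B, which encodes p15, rose by 1.42 (adjusted p = 0.00135, and 0.093 by the average of its probe sets). The lower members were CDKN1B (p27, -0.66), CDKN1C (p57, -1.41, with adjusted p = 0.0924 by the average of its probe sets), CDKN2D (p19, -1.26) and CDKN3 (-3.20), a phosphatase of CDK1 and CDK2 whose expression follows the mitotic genes. Together 3 of 7 were higher and 4 lower, with a median of -0.66.

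Targets of p53 and regulators of apoptosis leaned upward. GDF15, a stress-induced cytokine of the TGF-beta family, read 2430.1 and 2418 in growing, 14627 and 14677 in Ctrl-KD OIS and 35419.5 and 32059 in RB-KD OIS cells (3.80, standard error 0.072, adjusted p = 1.67e-07). The death receptor gene TNFRSF10B (0.85), SPATA18 (0.84) and MDM2, the ubiquitin ligase of p53 (0.75, but 0.42 and not called by the average of its probe sets, adjusted p = 0.312), were higher, and GADD45A was lower (-0.70). Of 23 p53 targets tested, 11 were higher and 2 lower (1 without either growing replicate), with a median of 0.17. Among 19 apoptosis regulators 10 were higher and 0 lower, with a median of 0.41. BCL2A1, an NF-kB-dependent survival gene, read 8.3 and 31.7 in growing, 5491 and 6008 in Ctrl-KD OIS and 7617 and 10122 in RB-KD OIS cells, at least 173-fold higher (adjusted p = 1.85e-05, limma). BIK, a BH3-only killer gene and known E2F target, read 33.6 and 37.8, 144 and 152 and 478 and 428, at least 8.93-fold higher (adjusted p = 5.45e-05). PMAIP1 (NOXA) and APAF1, both pro-apoptotic, rose by 0.89 and 0.80 over growing cells, and read 6803 and 7183 and 862 and 737 on the Ctrl-KD OIS arrays against 7468 and 7818 and 964 and 1125 in growing cells.

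Chemokines that attract neutrophils through CXCR2 had the highest median of all lists. CXCL5 read 56.3 and 27.3 in growing, 36289 and 24945 in Ctrl-KD OIS and 25147 and 33515 in RB-KD OIS cells (9.53, standard error 0.31, adjusted p = 1.48e-06). CXCL1 read 65.3 and 139, 33134 and 32041 and 48879.6 and 41716 (8.89, standard error 0.30, adjusted p = 1.66e-06). All 6 members tested were higher, with a median log2 fold change of 8.90, and CXCL3, CXCL2 and CXCL8 gave 8.91, 8.52 and 5.79. CXCL6, under the median of both growing arrays (9.6 and 1.5), read 6851 and 7104 in RB-KD OIS cells, at least 138-fold higher (adjusted p = 3.38e-05). CXCL8, with 57820.2 and 53673 on the RB-KD OIS arrays, lay close to the highest signals of those arrays (58199.5 to 64701), so the size of its change is uncertain. The same holds for IL1B, MMP1 and MMP3, with 59101 and 53487, 58797 and 57410.4 and 52724 and 50760.5 on those arrays. Against the Ctrl-KD OIS arrays 0 of the 6 were called higher and 0 lower, beside 12.6% and 11.6% of all genes tested. This does not show that the levels are equal.

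Cytokines followed the chemokines. IL1A, a membrane-bound trigger of the secretory program, read 32.2 and 65.9 in growing, 9338 and 7052 in Ctrl-KD OIS and 14197 and 12771 in RB-KD OIS cells (8.19, standard error 0.29, adjusted p = 2.1e-06). IL24, of the IL10 family, read 54.1 and 60.5, 835 and 884 and 3967 and 3725 (6.07, standard error 0.14, adjusted p = 4e-07). IL11, which signals through gp130 as IL6 does, read 1129 and 873, 6016 and 4615 and 23384 and 16742 (4.32, standard error 0.17, adjusted p = 3.38e-06). Both OIS states lay above growing cells in these genes, and IL24 and IL11 were higher still after RB than after control knockdown (log2 fold changes 2.16 and 1.91, adjusted p = 1.43e-05 and 0.000182). IL1B (8.23), IL6 (4.78) and LIF (2.96) rose over growing cells, and CSF3, the growth factor of granulocytes, rose at least 31.5-fold (adjusted p = 7.82e-06). Of 16 interleukins and colony-stimulating factors tested, 8 were higher and 3 lower, with a median of 2.65. The lower ones, TSLP (-2.10), IL15 (-1.23) and CSF1 (-0.80), act on lymphoid cells and macrophages. CCL20, a ligand of CCR6, read 1.7 and 6.9 in growing, 11617 and 12086 in Ctrl-KD OIS and 3792 and 6636 in RB-KD OIS cells, at least 99.1-fold higher than in growing cells (adjusted p = 1.93e-05). CCL2, which attracts monocytes, rose by 0.62 (adjusted p = 0.0117, and 0.0941 with an untrended variance prior), and 2 of 6 CC chemokines tested were higher and 0 lower. Without either RB-KD OIS replicate 1 was higher, since a gene that is dim in both growing arrays, such as CCL20, then fails the filter that 2 arrays must pass.

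**Figure D3:**
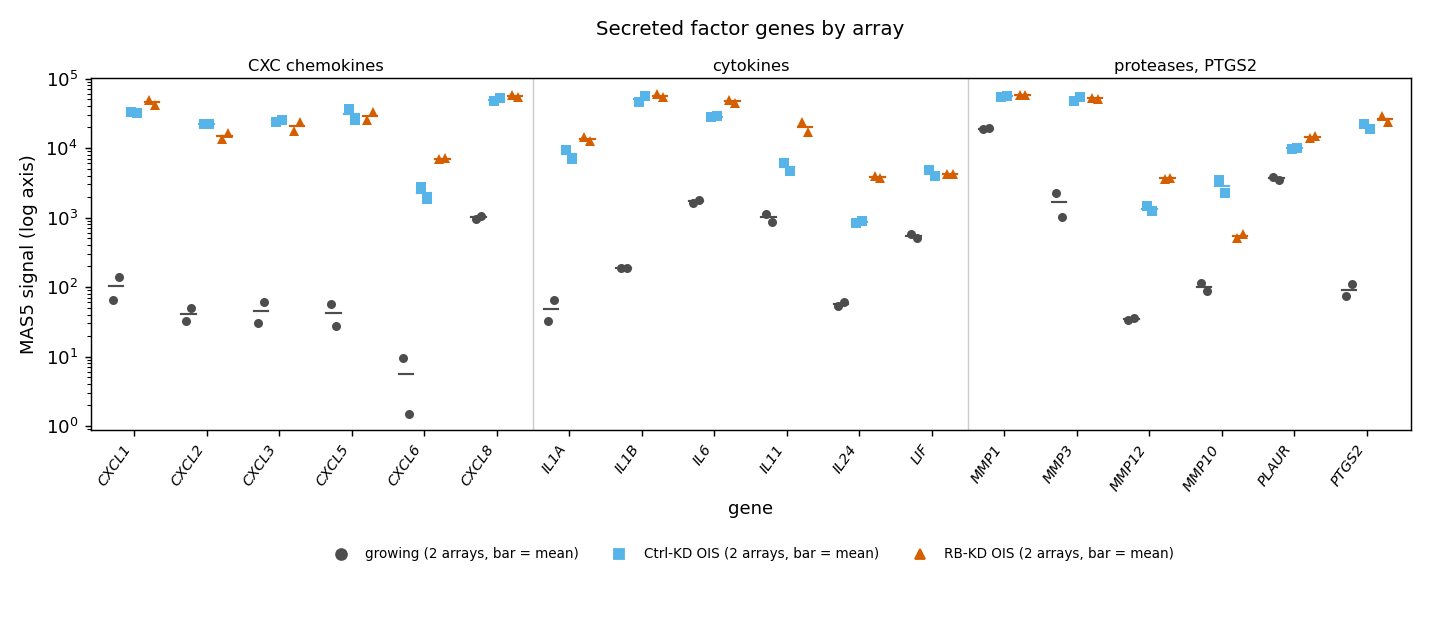
MAS5 signal (log axis) of chemokine, cytokine, protease and PTGS2 genes on each of the 2 arrays of each of the 3 states (growing, Ctrl-KD OIS, RB-KD OIS), with bars at the means. Both OIS states lie above growing cells in all 18 genes, and MMP10 is the gene in which RB-KD OIS arrays lie furthest below the Ctrl-KD OIS arrays.

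Some transcription factors and feedback genes of the secretory program were higher too, and others were not called or fell. NFKBIZ, a nuclear cofactor of NF-kB, read 896 and 1096 in growing, 15457 and 14146 in Ctrl-KD OIS and 16110.4 and 15759.8 in RB-KD OIS cells (4.01, standard error 0.10, adjusted p = 6.76e-07). The inhibitors TNFAIP3 (A20, 1.94) and TNIP1 (1.54) rose, and NFKBIA rose by 0.97 with the brightest probe set but was not called with the mean of all (0.019, adjusted p = 0.974). Of 16 members 8 were higher and 1 lower (median 0.52), with 5 higher without RB-KD OIS replicate 2 and 0 lower without any 1 of the 4 arrays. RELA, the main activating subunit, read 1639.5 and 1387 against 1201 and 1301 and was not called. CEBPB, the C/EBP factor of this program, rose from 8571 and 8287 to 19411 and 17455 (1.13, standard error 0.072, adjusted p = 2.63e-05). Of 12 C/EBP and AP-1 genes 6 were higher and 3 lower, and AP-1 genes moved in both directions. FOS had the largest change of the list, a rise. Its call ended with the mean of all probe sets (adjusted p = 0.0594) and with an untrended variance prior (adjusted p = 0.121). FOSL1 (-1.09) and FOSL2 (-0.76) fell. Of 19 cytokine receptor genes 5 were higher and 6 lower. TNFRSF1B, a receptor of TNF, rose by 1.92, and LIFR and IL11RA, the receptors of LIF and IL11, fell (-1.89 and -1.54) by the brightest probe set but were not called by the average of their probe sets (-0.72 and -0.68, adjusted p = 0.244 and 0.0577).

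Feedback genes of the ERK pathway, which Ras drives, were raised in RB-KD OIS cells. DUSP6, the phosphatase of ERK, read 4385 and 4165 in growing, 16938 and 17482 in Ctrl-KD OIS and 19344 and 16573 in RB-KD OIS cells (2.07, standard error 0.087, adjusted p = 4.06e-06). DUSP4, a nuclear phosphatase of the same family, rose from 103 and 86.2 to 1622 and 1159.6 (3.86, standard error 0.20, adjusted p = 1.17e-05). IER3 (2.74), the immediate early gene EGR3 (2.64), DUSP5 (1.98) and SPRY2 (1.94), an inhibitor of Ras signalling, were higher as well. Of 24 feedback genes tested, 13 were higher and 4 lower (1 and 2 without growing replicate 1 and 2), with a median of 0.96. Ligands of the EGF receptor family rose with them. EREG (epiregulin) read 674 and 709.5 in growing, 28961 and 22588 in Ctrl-KD OIS and 13630.1 and 14734 in RB-KD OIS cells (4.36, standard error 0.081, adjusted p = 1.67e-07), and NRG1 (neuregulin) rose by 3.63 and HBEGF by 0.62, which was not called without growing replicate 2 (adjusted p = 0.0885) nor by the average of its probe sets (adjusted p = 0.239). ERBB2, a receptor of the family, was lower (-1.31, but -0.56 and not called by the average of its probe sets, adjusted p = 0.342), and 3 of 7 in the list were higher and 1 lower.

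Several proteases that remodel the matrix rose. MMP12, the macrophage elastase, read 33.5 and 35.7 in growing, 1459 and 1230.4 in Ctrl-KD OIS and 3629 and 3659.9 in RB-KD OIS cells, at least 72-fold higher than in growing cells (adjusted p = 3.64e-07, limma). MMP3 (stromelysin 1) rose from 2284 and 1024 to 52724 and 50760.5 (5.08, standard error 0.31, adjusted p = 2.1e-05), and MMP10 (stromelysin 2) read 115 and 88, 3435 and 2247 and 499.6 and 573 (2.41 over growing cells, adjusted p = 0.000122). MMP1 (interstitial collagenase) and MMP14 (the membrane-bound activator of MMP2) rose by 1.62 and 1.26. The inhibitors TIMP3 (-1.06), TIMP4 (-1.73) and TIMP2 (-0.53) and the aggrecanases ADAMTS5 (-1.76) and ADAMTS1 (-1.58) were lower. Of 19 genes in the list 10 were higher and 7 lower, with a median of 0.57.

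Plasminogen activation and serpin genes gave 12 higher and 0 lower of 16 tested, with a median of 0.86. PLAUR, the urokinase receptor, read 3860.1 and 3510.2 in growing, 9796 and 10086 in Ctrl-KD OIS and 14059 and 15033 in RB-KD OIS cells (1.98, standard error 0.077, adjusted p = 3.05e-06), and its ligand PLAU and the tissue activator PLAT rose by 0.89 and 1.07. TFPI2, an inhibitor of plasmin, and STC1, a secreted glycoprotein, rose by 3.48 and 2.99. SERPINB4 read 2.4 and 1.6 in growing, 4505 and 4024 in Ctrl-KD OIS and 785 and 1208 in RB-KD OIS cells, at least 19.2-fold higher than in growing cells (adjusted p = 4.06e-05) though lower than in Ctrl-KD OIS cells (-2.13 on the log2 scale, adjusted p = 0.000973). SERPINB3, a near-identical neighbour that shares sequence with it, read 5.8 and 29.8, 4463 and 3949 and 509.7 and 1084, so the signals of the pair are uncertain.

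In a group of interferon-stimulated genes RB-KD OIS cells exceeded both other states. IFIT3, of the family that binds foreign RNA, read 1278 and 1278 in growing, 1021 and 689.9 in Ctrl-KD OIS and 6284 and 5344 in RB-KD OIS cells (2.18, standard error 0.10, adjusted p = 5.38e-06). HERC5, the ligase that attaches ISG15 to proteins, read 67.8 and 59.2, 81.5 and 80.9 and 1023 and 699 (3.74, standard error 0.24, adjusted p = 2.59e-05). IFIT1 read 469 and 507, 318 and 113 and 1751 and 1596 (1.78, standard error 0.11, adjusted p = 2.38e-05). The RB-KD OIS arrays lay above all 4 others in these 3 genes, and their log2 fold changes over Ctrl-KD OIS cells were 2.79, 3.38 and 3.14 (adjusted p = 1.31e-05, 5.63e-05 and 0.000503). OASL (2.82), IFI44 (2.49), ISG15 (1.75) and the sensor gene RIGI (1.19) rose over growing cells too. ISG20, a nuclease, and IFI27 were already higher in Ctrl-KD OIS cells, with 276 and 243 and 989 and 494 beside 55.3 and 23.1 and 86.7 and 128 in growing and 487 and 502 and 1255 and 563 in RB-KD OIS cells. Of 34 genes tested, 20 were higher and 3 lower, with a median of 1.10. The lower members were IFITM2 (-1.56) and IFITM3 (-0.90), near-identical genes whose signals may mix, and GBP1 (-0.43), and 5 were lower without RB-KD OIS replicate 1. The regulators IRF7 and IRF9 were not called and read 253 and 299.8 against 210.2 and 268 and 753 and 890.4 against 865 and 634.

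Both CXCR3 ligands tested, interferon targets that attract T cells, were highest in RB-KD OIS cells. CXCL10 read 229 and 224 in growing, 1693 and 846 in Ctrl-KD OIS and 6248 and 4694 in RB-KD OIS cells (4.58, standard error 0.14, adjusted p = 1.37e-06). CXCL11 read 25.2 and 35, 396 and 187 and 2464 and 2449.9, at least 48.5-fold higher than in growing cells (adjusted p = 1.53e-06). Of the 3 genes of this list 2 were higher and 1 lower, and with 1 RB-KD OIS array left out CXCL11 fails the filter and 1 was higher. CXCL12, which binds CXCR4, went the other way, from 399.8 and 693 to 28.9 and 30.1, at least 11.2-fold lower (adjusted p = 8.19e-05), but without growing replicate 2 another probe set is the brightest and gives -1.06 with no call (adjusted p = 0.164). The growing cells were not transfected, so transfection and RB loss cannot be told apart against them. Ctrl-KD OIS cells received an siRNA against luciferase and RB-KD OIS cells a mixture of siRNAs against RB1. The siRNAs used and RB loss thus cannot be told apart between the OIS states either, for these ligands or for the interferon-stimulated genes.

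**Figure D4:**
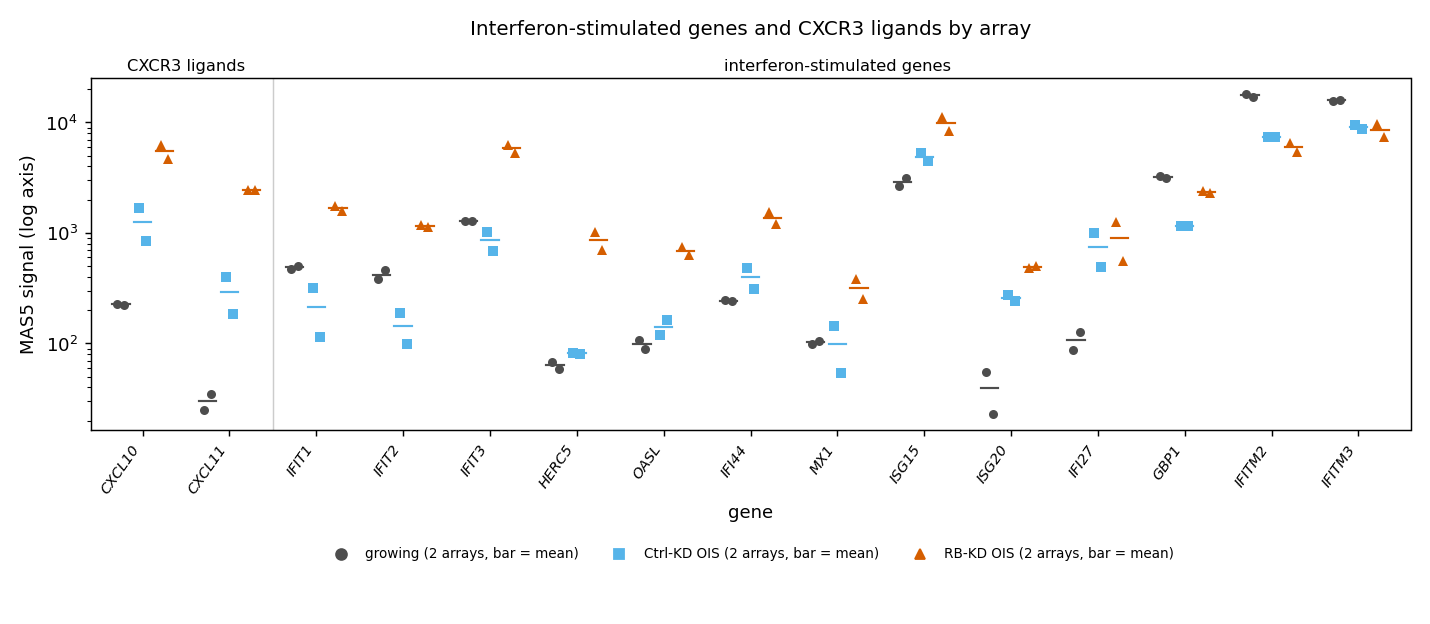
MAS5 signal (log axis) of CXCR3 ligands and interferon-stimulated genes on each of the 2 arrays of each of the 3 states (growing, Ctrl-KD OIS, RB-KD OIS), with bars at the means. The RB-KD OIS arrays lie above all others for CXCL10, CXCL11, IFIT1 to IFIT3, HERC5 and OASL, while IFITM2 and IFITM3 are highest in growing cells.

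More matrix genes of the fibroblast fell than rose. DCN, which encodes the proteoglycan decorin, read 21450.4 and 20994 in growing, 3202 and 3342 in Ctrl-KD OIS and 3188 and 2774 in RB-KD OIS cells (-2.84, standard error 0.082, adjusted p = 1.11e-06). EFEMP1 (-3.67), FBLN1 (-3.63), genes of the fibulin family, and LOXL1 (-2.81), a crosslinking enzyme of elastin, fell as well, and MFAP4 fell at least 7.59-fold (adjusted p = 0.00021). Of 28 glycoprotein, proteoglycan and crosslinker genes tested, 16 were lower and 5 higher, with a median of -0.69. The higher ones were THBS2 (2.27), POSTN (1.90), TNC (1.40), LAMA4 (1.10) and NID1 (0.80), and FN1, the abundant fibronectin gene, read 39737 and 42532 against 38967 and 36176 and was not called.

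Collagen genes gave 5 higher and 9 lower of 23 tested (median -0.26), with 9 higher without RB-KD OIS replicate 2. COL15A1, of the basement membrane zone, had the largest fall of the list, with 3284 and 2912 in growing, 38.3 and 30.2 in Ctrl-KD OIS and 89.4 and 72.5 in RB-KD OIS cells (-5.26, standard error 0.16, adjusted p = 1.26e-06). COL10A1, a collagen of hypertrophic cartilage, rose from 65.8 and 83.2 to 1885 and 1779 (4.63, standard error 0.17, adjusted p = 2.37e-06). COL7A1 and COL5A3 rose by 1.81 and 1.57, and COL1A2 fell (-0.80) while COL1A1 read 45586 and 45073 against 49088 and 43837 and was not called. COL3A1 read 26259 and 27508 in growing, 8873 and 7594 in Ctrl-KD OIS and 25317 and 16389 in RB-KD OIS cells and was not called against growing cells.

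Smooth muscle contractile genes, which mark activated fibroblasts, gave 12 lower and 1 higher of 16 tested, with a median of -0.72. The number higher was 0 without any 1 of the 4 arrays. CNN1 (calponin) read 2752 and 2755 in growing, 311 and 529 in Ctrl-KD OIS and 399 and 654 in RB-KD OIS cells (-2.43, standard error 0.21, adjusted p = 9.9e-05). TAGLN (-1.64) and ACTA2, smooth muscle actin (-1.56), fell, though for ACTA2 averaging its probe sets gave 0.55 and no call (adjusted p = 0.605). Genes of TGF-beta, activin and BMP signalling gave 5 higher and 11 lower of 25 (median -0.38). ID2, a direct target of BMP signals, read 5523 and 4928 in growing, 532 and 691 in Ctrl-KD OIS and 478 and 456 in RB-KD OIS cells (-3.48, standard error 0.10, adjusted p = 9.71e-07), and ID1 and ID3 fell as well (-1.91 and -1.33). INHBA, the activin A subunit, rose by 1.66 and BMP2 by 2.72, while the activin antagonist FST (-2.64) fell.

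Angiogenic and fibroblast growth factors moved in both directions. VEGFA, the main angiogenic factor, read 1977 and 1855 in growing, 9806 and 7644 in Ctrl-KD OIS and 10124 and 10316 in RB-KD OIS cells (2.42, standard error 0.073, adjusted p = 1.26e-06), and ANGPTL4 (3.50), FGF2 (1.71) and VEGFC (0.92) rose too. PDGFD (-3.30), BDNF (-3.10), ANGPT1 (-2.18, but -0.64 and not called by the average of its probe sets, adjusted p = 0.41), FGF5 (-2.02) and FGF7 (-2.01) fell. Of 16 genes tested 4 were higher and 7 lower (median -0.47). Of the 8 IGF axis genes tested, 4 were lower, namely IGFBP6 (-1.94), IGFBP3 (-1.58), IGFBP7 (-1.27) and IGFBP5 (-0.72). IGFBP1 was the 1 higher member and read 27.1 and 27.6 in growing, 80.5 and 69.6 in Ctrl-KD OIS and 614 and 211 in RB-KD OIS cells, at least 7.1-fold higher (adjusted p = 0.000994), though it fails the filter with 1 RB-KD OIS array left out, which leaves 0 higher.

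Markers of the fibroblast surface fell in part. THY1 (CD90) read 5423 and 5374 in growing, 848 and 675 in Ctrl-KD OIS and 1188 and 1205 in RB-KD OIS cells (-2.17, standard error 0.077, adjusted p = 1.93e-06), and the PDGF receptors PDGFRA and PDGFRB fell too (-1.31 and -1.60), though PDGFRA was not called by the average of its probe sets (adjusted p = 0.168) nor PDGFRB with an untrended variance prior (adjusted p = 0.0794). Of the 11 fibroblast markers 6 were lower and 1 higher (FAP, 0.51), with 3 higher without RB-KD OIS replicate 2, and VIM (vimentin) read 44315 and 42665 against 47582 and 44128 and was not called.

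Glycolytic enzymes stood above the growing level in part. ENO2, the neuronal enolase, rose by 2.05. HK2, an inducible hexokinase, read 2098 and 1936 in growing, 7969 and 3352 in Ctrl-KD OIS and 5174 and 4948 in RB-KD OIS cells (1.33, standard error 0.081, adjusted p = 2.08e-05, and 0.0986 by the average of its probe sets). GPI (0.79), PGK1 (0.66), TPI1 (0.64), HK1 (0.61, with adjusted p = 0.0671 under an untrended variance prior) and PGAM1 (0.59) were higher, and the glucose transporter SLC2A1 (-1.47) and the pyruvate kinase PKM (-0.71, not called with the mean of all probe sets, adjusted p = 0.113) were lower. Of 19 glycolytic genes tested, 10 were higher and 2 lower, with a median of 0.34. PFKM, the muscle phosphofructokinase, read 2370.3 and 2425 in growing, 3252 and 3647 in Ctrl-KD OIS and 2371 and 2631 in RB-KD OIS cells. ALDOC, the brain aldolase, read 239 and 245, 429 and 408 and 259 and 232. Neither was called against growing cells, and in both genes the RB-KD OIS arrays overlapped the growing arrays and lay below both Ctrl-KD OIS arrays. H6PD, of the endoplasmic pentose pathway, read 699 and 628, 1124 and 1088 and 716 and 774 in the same order and was not called either. PFKM, ALDOC and H6PD were picked because the paper names them. For RB-KD against Ctrl-KD OIS, 3 of the 19 glycolytic genes were called higher and 2 lower, with a median log2 fold change of -0.027. Of all genes tested in that comparison, 12.6% were called higher and 11.6% lower. Relative to growing cells, the list median stood at 0.28 in the Ctrl-KD and at 0.34 in the RB-KD state. The paper reports a KEGG set of glycolysis and gluconeogenesis genes as raised in Ctrl-KD but not RB-KD OIS cells. That set is not the list used here, and it was not tested.

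Genes of the respiratory chain moved little relative to growing cells. Of 56 respiratory chain genes 19 were higher and 7 lower, with a median of 0.059. Quantile normalization gave 13 higher and 14 lower, so the balance depends on the scaling. The number higher was 6 with an untrended variance prior and 9 and 10 without growing replicate 1 and 2, and the number lower was 4 without either. For RB-KD against Ctrl-KD OIS, 2 of the 56 were called higher and 12 lower, with a median of -0.0816. Of all genes tested in that comparison, 12.6% were called higher and 11.6% lower. NDUFV2, of the complex I entry site, had the largest rise, from 5577 and 5358 to 9234 and 8619.8 (0.71, standard error 0.07, adjusted p = 0.000206), and NDUFB7 the largest fall (-0.85, adjusted p = 0.00509). The NDUFB7 call ended by the average of its probe sets (-0.36, adjusted p = 0.283) and with an untrended variance prior (adjusted p = 0.0689). SCO2, a copper chaperone of complex IV, read 1706 and 1652 in growing, 3012 and 3439.5 in Ctrl-KD OIS and 1936 and 2118 in RB-KD OIS cells. The log2 fold change over growing cells was 0.27 (adjusted p = 0.0457), a call that ended in 8 of the alternatives, among them without growing replicate 1 or 2 (adjusted p = 0.143 and 0.218) and without RB-KD OIS replicate 2 (adjusted p = 0.113). TCA cycle and pyruvate genes gave 6 higher and 6 lower of 26 (median -0.035), with 2 lower without growing replicate 2, 3 without RB-KD OIS replicate 1 and 10 without RB-KD OIS replicate 2. IDH2, the mitochondrial isocitrate dehydrogenase, read 1511 and 1461, 804 and 908 and 2948 and 3212 (1.05, standard error 0.087, adjusted p = 8.3e-05). Its RB-KD OIS arrays lay above and its Ctrl-KD OIS arrays below the growing arrays. PDHB, a subunit of pyruvate dehydrogenase, was lower (-0.86, adjusted p = 0.000143).

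Lysosomal genes leaned upward against growing cells, with 21 higher and 6 lower of 46 tested and a median of 0.33. For RB-KD against Ctrl-KD OIS they leaned downward, with 5 of 46 called higher, 18 lower and a median of -0.231. Of all genes tested in that comparison, 12.6% were called higher and 11.6% lower. CTSS, a cathepsin of antigen processing, read 78.7 and 174 in growing, 5052 and 4220.5 in Ctrl-KD OIS and 5575 and 5583 in RB-KD OIS cells (5.57, standard error 0.32, adjusted p = 1.59e-05). CTSK, a collagen-degrading cathepsin, read 892 and 1099, 2088 and 1962 and 7001 and 5262 (2.62, standard error 0.15, adjusted p = 1.81e-05). The proton pump subunits ATP6V1C1 (1.24), ATP6V1B2 (0.87) and ATP6V1E1 (0.79) rose, and the cathepsin CTSC fell (-1.84). Antioxidant and NRF2 target genes leaned downward, with 5 higher and 12 lower of 24 (median -0.22). SLC7A11, the cystine transporter, read 9940.1 and 8963 in growing, 838 and 541 in Ctrl-KD OIS and 2171 and 1729 in RB-KD OIS cells (-2.28, standard error 0.12, adjusted p = 9.96e-06), and NQO1 and TXNRD1 fell (-1.37 and -0.65). Of the higher members, SOD2, the mitochondrial superoxide dismutase and an NF-kB target, rose by 1.51.

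**Figure D5:**
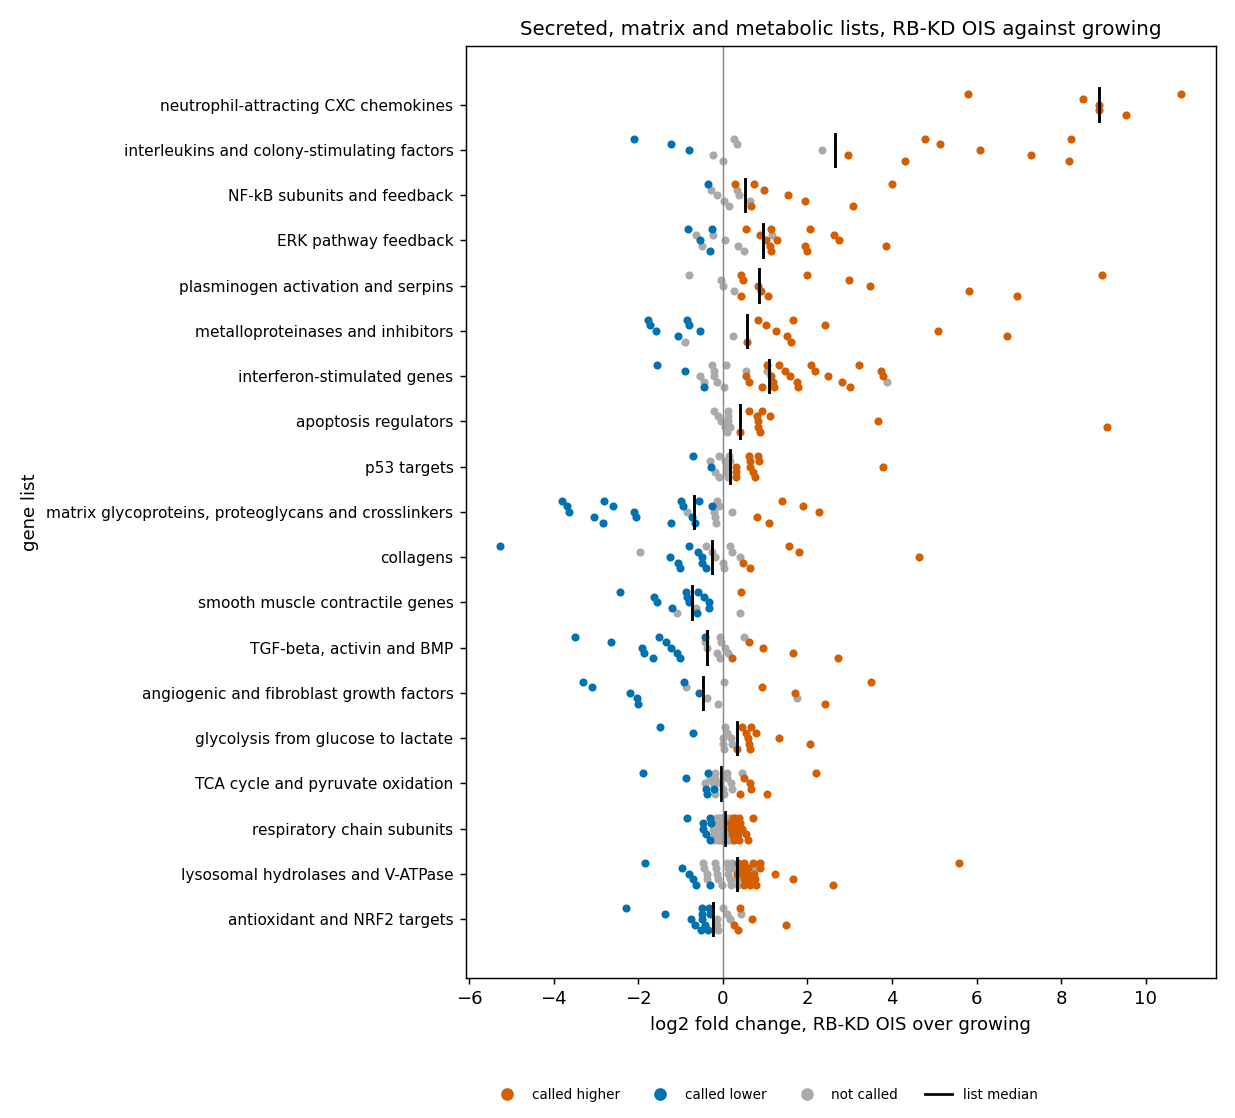
Log2 fold change of RB-KD OIS over growing cells for each tested member of 19 secreted, signalling, matrix and metabolic lists, 1 point per gene (2 arrays against 2), coloured by its call, with a black bar at the list median. The CXC chemokines stand furthest right with a median of 8.90, matrix and contractile genes lie left of 0, and respiratory chain genes stay close to 0 with a median of 0.0588.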

How the data were processed

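RNA of 6 samples was hybridised to Affymetrix U133 Plus 2.0 arrays, which carry several probe sets for many genes. The authors made the deposited values, linear intensity per probe set, with the MAS5 algorithm in Affymetrix Expression Console, and the software version is not given in the sources used here. The values were already scaled, with trimmed means (2% off each tail) of 496.2 to 496.5. Intensities carry no read depth, so precision rests on 2 arrays per state. A permutation test of 2 against 2 arrays cannot go below p = 0.333, so limma's moderated test across all genes was used throughout.

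Of 54613 probe sets, 41091 name 1 gene in the platform annotation, 1801 name several and 11721 are unnamed here. Each of 19775 genes was given by its brightest probe set over the arrays, on the log2 scale. The filter kept 12823 genes with a signal above the array median on at least 2 arrays. RB-KD OIS and growing arrays were fitted with limma 3.58.1 in R 4.3.3 (lmFit, eBayes with trend, Benjamini-Hochberg adjustment, called at an adjusted p under 0.05). The scripts were tested on simulated data. RB-KD against Ctrl-KD OIS values come from a fit of all 6 arrays. Where both arrays of 1 state read a gene under their median, the change is a lower bound ("at least") computed against that median. "Apart" means that no array of one state lay within the range of the other.

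The 41 gene lists, the members and the named genes were chosen with earlier results of these data known. Named genes are RB1, genes named in the paper, the 12 rises and 12 falls of greatest size, the 6 largest bounds each way and up to 5 called genes per list with the largest change. Other genes in the text were added after their values were seen, as were the printed promoters, picked for holding the letters searched. Promoters are from RefSeq on GRCh38.p14, from 250 bases before to 50 after a start site, and a gene counts if any of its windows holds the letters. Alternatives were another scaling, offset, filter, probe set rule, variance prior, array set and replicate block, and leaving out each array. 1 repair gene is not reported here.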

Additional observations from a re-analysis of the deposited data

How the results depend on the processing

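With 2 arrays a state, the size of the spread rests on few values, and MAS5 signals near an array's median or its highest value are less certain than those between. Over 14 alternatives, 2810 results for 210 named genes kept their side of the threshold, and those that were called also kept their direction. A further 65 were no longer called, 1 became called and 7 results of called genes turned sign. Sign turns of genes that were called in neither fit were not counted, nor were fits in which a gene failed the filter. Other genes in the text were not recomputed. Of the counts over gene lists, 899 stayed within 1.5 times and 109 moved, most often with the mean of all probe sets and with an untrended variance prior. With the mean of all probe sets, 1488 genes were called higher and 1705 lower, 5 licensing genes were higher, and RB1 gave -2.16 (adjusted p = 0.0551). This rule averages dim probe sets into the signal of a gene, as RB1 shows. The same rule turned HMGB2 to 0.49, ACTA2 to 0.55, FUCA1 to -0.28 and IDI1 to -0.24, all without a call. DEPP1 turned to 0.048 with all 6 arrays in the fit, with or without the block, and it ranged from -4.33 to 0.14 when each array was left out. Another of its probe sets, at 0.048 over the 4 arrays, is the brightest where the sign turns. Leaving out each array gave 2055 to 2584 genes called higher and 1894 to 2985 lower.

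The replicate differences of growing and RB-KD OIS cells correlated at 0.00834 across genes, so no replicate effect shared by these 2 states was seen. This does not show how the samples were paired, and the Ctrl-KD OIS arrays were not checked in this way. With a replicate block, 2685 genes were called higher and 2860 lower, RB1 gave -3.52, 46 spindle genes were lower, and 15 fork and 9 licensing genes were higher. With the block and all 6 arrays, 6 licensing genes were higher.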

Other observations

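The genes with the largest changes between RB-KD OIS and growing cells included several outside the lists above. TNFSF15, a cytokine of the TNF family, read 77.8 and 84.5 in growing, 28452 and 29199.8 in Ctrl-KD OIS and 26412 and 26526 in RB-KD OIS cells (log2 fold change over growing 8.35, standard error 0.093, adjusted p = 1.36e-08, limma). G0S2, an inhibitor of triglyceride breakdown, rose from 52.4 and 44.2 to 4899 and 7463 (6.97, adjusted p = 1.26e-06), and TCIM and COXFA4L3 rose by 6.27 and 5.82. EHF, an ETS factor of epithelia, read 12.5 and 18.6 in growing, 5516 and 3960.2 in Ctrl-KD OIS and 7654 and 6339 in RB-KD OIS cells, at least 138-fold higher (adjusted p = 6.76e-07). Of the epithelial markers, CDH1, KRT5 and KRT14 lay under the array median on these arrays. EPCAM (82 and 96.6 in growing, 109.8 and 140.5 in RB-KD OIS cells), KRT8 and KRT18 lay above it on all growing and RB-KD OIS arrays and were not called. OXTR, the oxytocin receptor, read 1876 and 2591, 22.9 and 70.5 and 44.6 and 75.1 and had the largest fall of these genes (-5.25, standard error 0.27, adjusted p = 1.09e-05). NFIX, a factor of the nuclear factor I family, fell from 1782 and 1169 to 71.5 and 64.1 (-4.41, adjusted p = 1.04e-05), and TOX, NTN4 (netrin 4) and LINC01279 fell as well (-4.31, -4.14 and -4.42).

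Of 11 prostaglandin genes tested, 3 were higher and 3 lower, shares near those over all genes. PTGS2, the inducible cyclooxygenase, read 74.6 and 109 in growing, 22319 and 18602 in Ctrl-KD OIS and 28602 and 23519.8 in RB-KD OIS cells (8.17, standard error 0.18, adjusted p = 3.64e-07). PLA2G4A, which releases arachidonic acid, rose by 2.45 and PTGES3 by 0.62, and the prostaglandin E2 receptors PTGER2 and PTGER4 and the cyclooxygenase PTGS1 fell (-3.01, -0.98 and -0.21), though PTGER4 was not called by the average of its probe sets (adjusted p = 0.212). Of 19 cholesterol synthesis genes 6 were higher and 3 lower, with 2 higher without growing replicate 1. INSIG1, the sterol-sensing brake of the pathway, rose by 1.33 (adjusted p = 1.32e-05), and SREBF1 was lower by the brightest probe set (-0.92, adjusted p = 0.00664) but not by the average of its probe sets (-0.038, adjusted p = 0.946).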
